A study of Rattus norvegicus with 18 samples.

Results

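The genes described here code for the citric acid cycle and the respiratory chain of the rat, from the pyruvate dehydrogenase complex that feeds the cycle to cytochrome c oxidase at the end of the chain. They are a list of 37 nuclear genes, and a gene was measured where the platform annotation maps at least 1 probe set to its symbol alone. By that rule 33 of the 37 genes had a value, out of 14217 genes on the array, each represented by its probe set with the highest mean signal over all arrays. The 33 were 3 of 4 pyruvate dehydrogenase genes, all 10 citric acid cycle genes, 8 of 9 complex I genes, all 4 complex II genes, all 4 complex III genes, 4 of 5 complex IV genes and 0 of 1 for cytochrome c. Dlat had no probe set listed under its symbol, and Ndufa10, Cycs and Cox7a2 had only probe sets that carry several symbols, so these 4 genes have no value here.

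RNA came from whole-wall colon of rats with chemically induced colitis and was measured on 18 Affymetrix rat genome arrays. The 6 controls were healthy rats given a saline enema, and the treated rats received 1 enema of 10 mg trinitrobenzenesulfonic acid (TNBS), a hapten, in 50% ethanol, with 3 arrays each at days 2, 5, 7 and 14 afterwards. Strain, sex and age are not given in the labels. The treated rats were picked on inflammatory markers (myeloperoxidase activity, weight loss and colon weight per length), and no ethanol-only group was analysed here, so TNBS and its ethanol vehicle cannot be told apart. The labels name 6 control rats and 3 replicates a day, without tying each TNBS array to a rat of its own, so p-values measure the spread between these samples, which may in part be technical.

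The citric acid cycle oxidises acetyl groups in the mitochondrial matrix and passes electrons to NADH and, through succinate dehydrogenase, to ubiquinone. Complexes I, III and IV then carry those electrons to oxygen and pump protons, and ATP synthase uses the resulting gradient to make ATP. The colonic epithelium relies heavily on this route, because it oxidises butyrate from bacterial fermentation, and smooth muscle of the colon wall is rich in mitochondria too.

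The values are log2 signals after quantile normalization of all 18 arrays. This step was needed because the deposited control arrays had medians of 4.27 to 4.3 and the TNBS arrays medians of 5.03 to 5.07, a gap that goes together with a different extraction entry in the labels. Treatment, extraction entry and value distribution cannot be told apart. Rose or fell against control is written here only for calls shared by 3 scales, which are the quantile-normalized values, the deposited values and values centred on each array's median. All 3 scales come from the same deposited values, so a call they share still does not tell treatment from extraction. Comparisons between TNBS days do not subtract control values and lead the account, although the 6 controls enter the normalization and the shared spread behind every p-value. Where arrays are placed above, below or inside the control range, this is on the quantile-normalized scale and may not hold on the others. A call is a limma adjusted p (Benjamini-Hochberg over 31042 probe sets) under 0.05. Where counts at an unadjusted p under 0.05 are given, the share of all probe sets at that threshold was not counted. Such counts therefore do not show an excess over the array. All 33 genes were bright, from percentile 86.3 of probe sets upward with a median at percentile 97.5. Markers of the labelled tissue were present, since all 10 enterocyte and all 9 smooth muscle markers lay above the median probe set in the control arrays. Day 2 replicate 1 stood apart, with a mean correlation of 0.970 to the other day 2 arrays and 0.987 to the day 14 arrays.

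Among the TNBS days most of the genes were lowest on day 7 and highest on day 14. The mean was lowest on day 7 for 26 of the 33 genes and on day 5 for the other 7, and it was highest on day 14 for 29. The exceptions at the top were Pdha1, Idh2 and Mdh2, highest on day 2, and Dlst, highest on day 5. Set against its mean over 18 arrays, the average gene stood at -0.54 log2 in day 7 replicate 1, where all 33 genes were below their own mean, and at -0.12 and -0.19 in the other day 7 arrays. The 3 day 14 arrays stood at 0.15, 0.18 and 0.19, with 5, 3 and 3 genes below their own mean. Day 5 was uneven, at -0.01, -0.31 and -0.18, and so was day 2, at 0.21, -0.02 and -0.01.

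**Figure D1:**
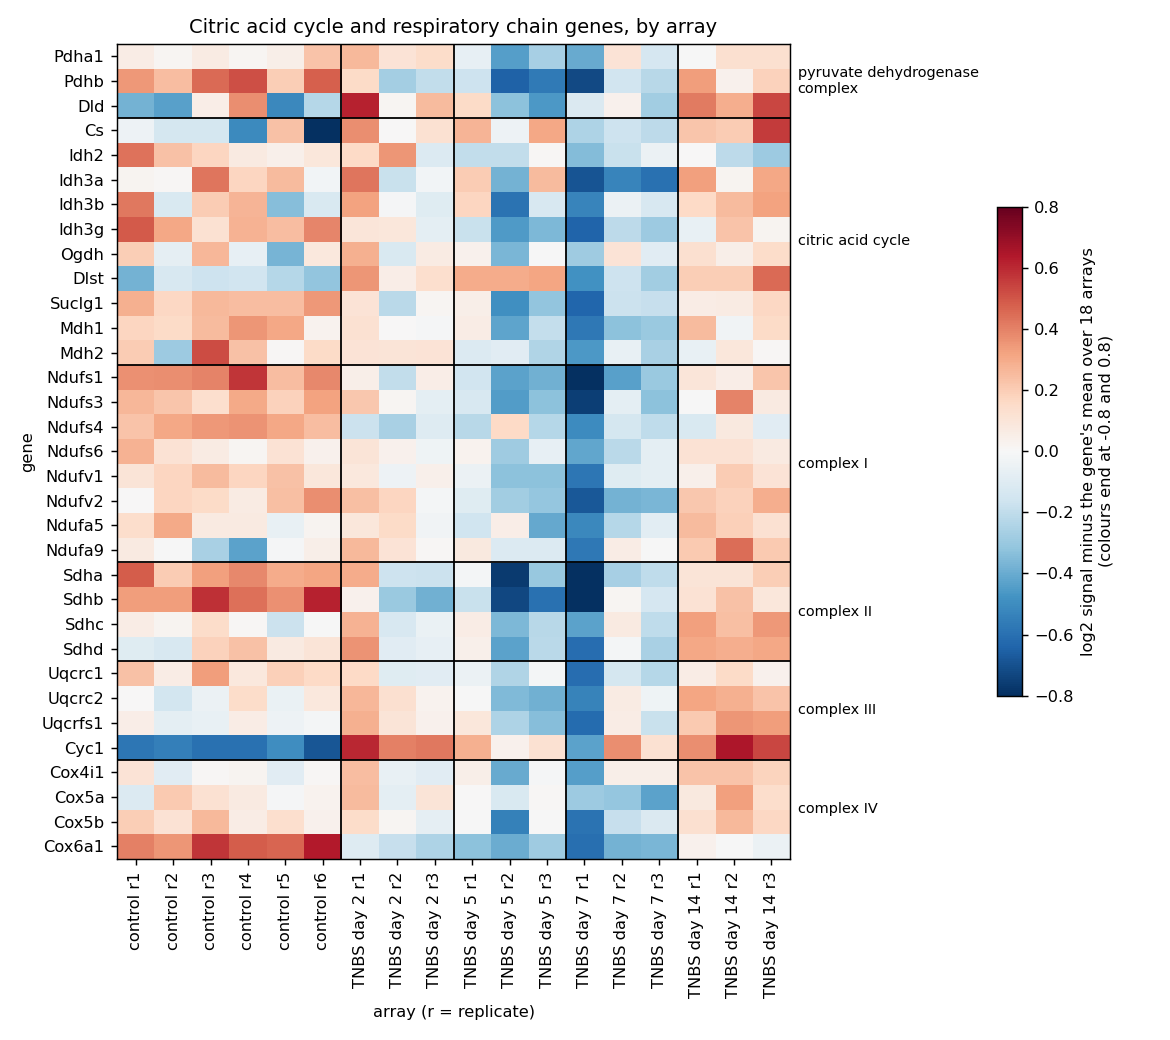
Log2 signal of each of the 33 genes in each of the 18 arrays, as the difference from the gene's own mean over the arrays; rows are genes grouped by complex, columns are arrays, red is above and blue below the mean. Day 7 replicate 1 is blue in every row, the 3 day 14 columns are mostly red, and Cyc1 is blue in all 6 control arrays.

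Between day 7 and day 14 the fitted difference was above 0 for 33 of 33 genes, with a median of 0.48 log2 and a range from 0.03 for Idh2 to 0.83 for Idh3a. The median over all probe sets was 0.03, and over the brighter 50% of probe sets it was 0.08. limma called 10 of the 33 genes higher on day 14 and 0 lower, with 0 genes lower at an unadjusted p under 0.05 either. Over all probe sets 1.18% were called higher and 2.97% lower, and in the brighter 50% of them 2.18% were called higher. The 3 day 14 arrays lay above all 3 day 7 arrays for 29 of the 33 genes, against 14.1% of all probe sets; Pdha1, Idh2, Ogdh and Mdh2 were the 4 that overlapped.

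The called genes came from every group but pyruvate dehydrogenase: 3 of 10 in the citric acid cycle, 3 of 8 in complex I, 1 of 4 in complex II, 1 of 4 in complex III and 2 of 4 in complex IV. All 10 were also called higher on the deposited scale and after median centring. The count moved with single arrays, while the direction of these 10 did not. Without day 7 replicate 1 the median difference was 0.33, 32 of 33 genes were above 0 and 3 were called, namely Dlst, Ndufv2 and Cox5a. Without day 14 replicate 1 limma called 5 genes, without day 14 replicate 3 it called 4, and without day 7 replicate 2 it called 16. With the 12 TNBS arrays normalized and fitted alone, an alternative chosen after the data were seen, 2 genes were called, Ndufv2 and Cox6a1, and the F test among days called 0. In each of these refits the 10 genes kept a difference of at least 0.35 log2.

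**Figure D2:**
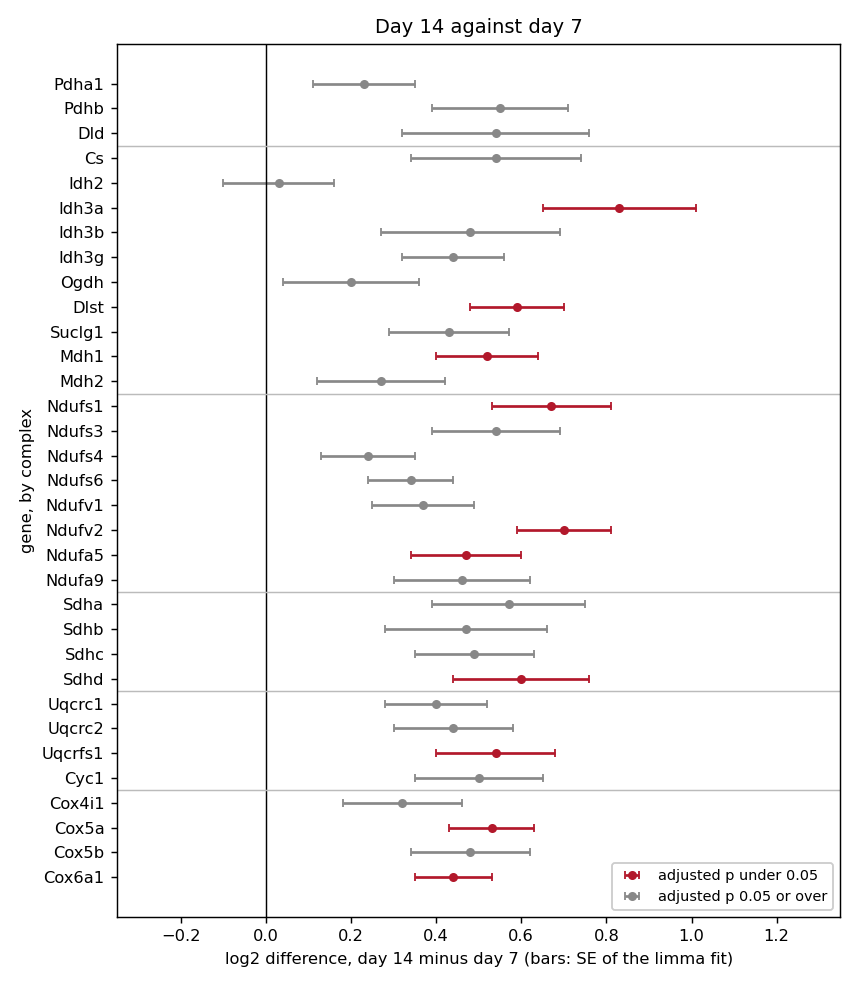
Fitted log2 difference between day 14 and day 7 for each of the 33 genes, grouped by complex from pyruvate dehydrogenase at the top to complex IV at the bottom; points are differences, bars their standard errors, and red marks the 10 genes with an adjusted p under 0.05. Every point lies above 0, from 0.03 for Idh2 to 0.83 for Idh3a.

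Some promoters of these genes carry short motifs of factors known to act on mitochondrial genes, and 4 are shown as examples from genes whose day 14 arrays all lay above their day 7 arrays. RefSeq promoter windows (build GRCr8, 250 bases before to 50 bases after the start) were matched by symbol for 34 of the 37 genes. The GABP motif CCGGAAGTG was found on either strand in 3 of the 34 windows (Dlst, Cox5b and Mdh2), against 1.89% of all 33469 promoters in the table. The YY1 motif AAGATGGCG was found in 5 (Ndufs6, Ndufs4, Ndufa9, Uqcrc1 and Idh3g), against 1.73% of all promoters. The NRF1 motif CGCATGCG was found in 2 (Cycs and Uqcrc1), against 1.66%, and the ERR motif TCAAGGTCA in 1 (Sdhd), against 0.433%. The 4 motifs do not contain one another. Each sequence below is the 130 bases before the start, 5′ to 3′ on the gene's own strand, with the motif in capitals on whichever strand it matched; a match is a description of the letters and not a site.
Dlst promoter, chr6:110489576-110489705, plus strand, GABP motif: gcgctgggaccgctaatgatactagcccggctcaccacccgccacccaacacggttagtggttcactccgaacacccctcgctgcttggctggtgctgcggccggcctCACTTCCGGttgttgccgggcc
Cox5b promoter, chr9:46417707-46417836, plus strand, GABP motif: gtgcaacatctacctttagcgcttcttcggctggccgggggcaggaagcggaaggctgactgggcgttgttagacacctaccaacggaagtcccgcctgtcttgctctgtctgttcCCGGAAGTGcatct
Idh3g promoter, chrX:156675483-156675612, minus strand, YY1 motif: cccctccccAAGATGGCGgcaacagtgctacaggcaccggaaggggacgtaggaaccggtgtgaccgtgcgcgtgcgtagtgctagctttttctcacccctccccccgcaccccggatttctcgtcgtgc
Uqcrc1 promoter, chr8:118468093-118468222, plus strand, NRF1 motif: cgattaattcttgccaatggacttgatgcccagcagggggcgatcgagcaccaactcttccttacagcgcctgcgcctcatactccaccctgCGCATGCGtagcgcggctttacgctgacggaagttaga
Counted from the start, the GABP motif has its first base at -22 in Dlst, where it reads on the opposite strand, and at -14 in Cox5b. The YY1 motif of Idh3g begins at -121 and the NRF1 motif of Uqcrc1 at -38.

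The pyruvate dehydrogenase complex turns pyruvate into acetyl-CoA and so sets how much glucose carbon enters the cycle. Pdhb, the beta subunit of its first enzyme, had control values of 9.58, 9.78 and 9.90 (lowest, median and highest of 6). On day 5 the 3 arrays read 9.22, 8.74 and 8.82, on day 7 8.66, 9.23 and 9.16, and on day 14 9.72, 9.42 and 9.57. For Pdhb, day 2 gave 9.54, 9.11 and 9.19. No day 2, 5 or 7 array reached the lowest control, and Pdhb fell by 0.83 ± 0.14 (SE) on day 5 against control (limma adjusted p = 0.000637). Its difference of 0.55 ± 0.16 between days 7 and 14 missed the threshold (limma adjusted p = 0.074), although the arrays did not overlap. Pdha1, the alpha subunit that carries the regulatory phosphorylation sites, stayed closer together, with control values of 9.56, 9.59 and 9.77. Its arrays read 9.14, 9.65 and 9.41 on day 7, compared with 9.54, 9.67 and 9.67 on day 14, and they overlapped. For Pdha1, days 2 and 5 gave 9.80, 9.65 and 9.69, then 9.48, 9.10 and 9.28, with all day 5 arrays below the lowest control. Dld, the dihydrolipoamide dehydrogenase shared with the 2-oxoglutarate dehydrogenase complex, varied among the controls (8.21, 8.42 and 9.10) and read 8.61, 8.76 and 8.45 on day 7, compared with 9.14, 9.02 and 9.26 on day 14. For Dld, days 2 and 5 gave 9.34, 8.74 and 8.98, then 8.88, 8.40 and 8.27, with day 5 inside the control range. The day 14 arrays of Dld were above the day 7 arrays, with a difference of 0.54 ± 0.22 that was not called (limma adjusted p = 0.195).

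In the citric acid cycle the gene that differed most between days 7 and 14 was Idh3a, the catalytic subunit of the NAD-dependent isocitrate dehydrogenase, a main control point of the cycle. Idh3a read 8.35, 8.51 and 8.44 on day 7, compared with 9.37, 9.06 and 9.35 on day 14 and 9.02, 9.14 and 9.47 in the controls. For Idh3a, days 2 and 5 gave 9.47, 8.86 and 9.02, then 9.24, 8.66 and 9.29. All 3 day 7 arrays lay below every other array of the study, and the rise by day 14 was 0.83 ± 0.18 (limma adjusted p = 0.0151). Its regulatory subunits moved less, with differences of 0.48 ± 0.21 for Idh3b and 0.44 ± 0.12 for Idh3g (limma adjusted p = 0.232 and 0.0564). Idh3g fell on day 7 against control by 0.69 ± 0.11 on the log2 scale (limma adjusted p = 0.000254).

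Dlst, the succinyltransferase core of the 2-oxoglutarate dehydrogenase complex, kept another order than most. Its control values were 8.39, 8.57 and 8.64, and days 2 and 5 gave 9.12, 8.82 and 8.90, then 9.06, 9.06 and 9.08. Its day 7 values were 8.28, 8.60 and 8.49, and its day 14 values 8.96, 8.96 and 9.22. Thus the day 7 arrays lay within or below the control range while every array of days 2, 5 and 14 lay above it. Dlst rose by 0.59 ± 0.11 between days 7 and 14 (limma adjusted p = 0.00643) and was higher than control on day 14 by 0.51 ± 0.09 (limma adjusted p = 0.00231). Ogdh, the first enzyme of the same complex, differed by 0.20 ± 0.16 between days 7 and 14 (limma adjusted p = 0.587).

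Mdh1, the cytosolic malate dehydrogenase of the malate-aspartate shuttle, read 10.35, 10.59 and 10.62 on day 7, compared with 11.17, 10.89 and 11.07 on day 14 and 10.95, 11.13 and 11.27 in the controls. For Mdh1, days 2 and 5 gave 11.04, 10.92 and 10.91, then 10.98, 10.50 and 10.73. Every day 7 array of Mdh1 was below every control and every day 14 array. It fell by 0.61 ± 0.11 on day 7 against control (limma adjusted p = 0.00058) and rose by 0.52 ± 0.12 from day 7 to day 14 (limma adjusted p = 0.0233). Mdh2, its matrix counterpart, differed by 0.27 ± 0.15 between days 7 and 14 (limma adjusted p = 0.371). Of the other cycle genes, Cs, the citrate synthase, differed by 0.54 ± 0.20, Suclg1, a succinyl-CoA ligase subunit, by 0.43 ± 0.14, and Idh2, the NADP-dependent mitochondrial enzyme, by 0.03 ± 0.13. None of these 3 was called (limma adjusted p = 0.165, 0.0968 and 0.942).

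Complex I takes electrons from NADH and is the largest complex of the chain. Ndufv2, an iron-sulfur subunit of its NADH-binding arm, read 10.33, 10.49 and 10.70 in the controls, 10.57, 10.50 and 10.31 on day 2 and 10.23, 10.05 and 10.02 on day 5. It then read 9.65, 9.95 and 9.96 on day 7, compared with 10.54, 10.51 and 10.62 on day 14. After quantile normalization the 3 day 7 arrays were lower than all others, and the day 14 arrays were inside the control range. As deposited day 14 read 10.65 to 10.75, above the controls at 10.09 to 10.47, and day 7 reached 10.11. Ndufv2 fell by 0.64 ± 0.10 on day 7 against control (limma adjusted p = 0.0002) and rose by 0.70 ± 0.11 from day 7 to day 14 (limma adjusted p = 0.00255). It also had the smallest adjusted p among the 33 genes in the F test over the 4 TNBS days, 0.00768.

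Ndufs1, the large iron-sulfur subunit of the same arm, read 9.17, 9.30 and 9.50 in the controls and 8.97, 8.73 and 8.98 on day 2. It read 8.77, 8.50 and 8.54 on day 5 and 8.01, 8.49 and 8.63 on day 7, compared with 9.02, 8.98 and 9.15 on day 14. After quantile normalization all 12 TNBS arrays were below the lowest control, by the smallest margin on day 14. As deposited the day 14 arrays of Ndufs1 read 9.15 to 9.30 and the controls 8.89 to 9.24. Ndufs1 fell by 0.94 ± 0.12 on day 7 against control (limma adjusted p = 4.54e-05) and rose by 0.67 ± 0.14 from day 7 to day 14 (limma adjusted p = 0.0109). Ndufa5, an accessory subunit, read 8.21, 8.50 and 8.64 on day 7, compared with 8.98, 8.92 and 8.85 on day 14 and 8.67, 8.80 and 9.03 in the controls. For Ndufa5, days 2 and 5 gave 8.82, 8.88 and 8.70, then 8.57, 8.78 and 8.32. Ndufa5 rose by 0.47 ± 0.13 from day 7 to day 14 (limma adjusted p = 0.0473). Its direction against control on day 7 depended on the scale, at -0.37 after quantile normalization and 0.12 as deposited. Ndufs3, a core subunit near the quinone site, read 8.70, 9.38 and 9.13 on day 7, compared with 9.45, 9.85 and 9.53 on day 14, against 9.59, 9.70 and 9.78 in the controls. For Ndufs3, days 2 and 5 gave 9.67, 9.47 and 9.38, then 9.33, 9.01 and 9.13, with all day 5 arrays below the lowest control. Its day 7 and day 14 arrays were apart, but the difference of 0.54 ± 0.15 was just short of a call (limma adjusted p = 0.0514). The other 4 complex I genes differed by 0.24 (Ndufs4) to 0.46 (Ndufa9) between these days, and none was called.

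Complex II, succinate dehydrogenase, belongs to both the cycle and the chain. Sdhd, 1 of its membrane anchors, read 10.53, 10.74 and 10.89 in the controls and 10.05, 10.64 and 10.40 on day 7, compared with 10.97, 10.95 and 10.97 on day 14. For Sdhd, days 2 and 5 gave 11.02, 10.57 and 10.59, then 10.70, 10.23 and 10.44. After quantile normalization the 3 day 14 arrays lay close together and above every control. Sdhd was not called higher than control on all 3 scales on day 14, so no direction against control is given. Its rise from day 7 was 0.60 ± 0.16 (limma adjusted p = 0.0455). Sdhc, the other anchor, read 9.94, 10.44 and 10.17 on day 7, compared with 10.70, 10.61 and 10.72 on day 14, with controls at 10.20, 10.38 and 10.52, and its difference of 0.49 ± 0.14 was not called (limma adjusted p = 0.0547). For Sdhc, days 2 and 5 gave 10.65, 10.24 and 10.32, then 10.43, 10.01 and 10.15. Among the catalytic subunits the day 7 arrays were all below the controls. Sdha, the flavoprotein, read 10.44, 10.55 and 10.72 in the controls and 9.41, 9.97 and 10.03 on day 7, compared with 10.34, 10.34 and 10.43 on day 14. For Sdha, days 2 and 5 gave 10.53, 10.07 and 10.06, then 10.22, 9.47 and 9.93, with day 2 replicate 1 the 1 array of these within the control range. Sdhb, the iron-sulfur subunit, shown here after its values were seen, read 10.96, 11.03 and 11.24 in the controls and 9.80, 10.64 and 10.49 on day 7, compared with 10.74, 10.86 and 10.72 on day 14. For Sdhb, days 2 and 5 gave 10.66, 10.33 and 10.24, then 10.45, 9.90 and 10.03. After quantile normalization Sdhb was below the lowest control in all 12 TNBS arrays. As deposited its day 14 arrays read 10.85 to 10.96, above the lowest control at 10.74. On day 7 Sdha fell by 0.77 ± 0.16 and Sdhb by 0.76 ± 0.16 against control (limma adjusted p = 0.00196 and 0.0025), and Sdhb fell by 0.94 ± 0.16 on day 5 (limma adjusted p = 0.000668).

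Complex III passes electrons from ubiquinol to cytochrome c. Uqcrfs1, its Rieske iron-sulfur protein, read 10.86, 10.91 and 11.00 in the controls and 10.32, 11.00 and 10.76 on day 7, compared with 11.15, 11.29 and 11.27 on day 14. For Uqcrfs1, days 2 and 5 gave 11.22, 11.04 and 10.97, then 11.03, 10.69 and 10.60. After quantile normalization day 7 replicate 1 was the lowest of all arrays and all 3 day 14 arrays exceeded every control. Uqcrfs1 was not called higher than control on all 3 scales on day 14 either. The rise between days 7 and 14 was 0.54 ± 0.14 (limma adjusted p = 0.042). Uqcrc2, a core protein, read 10.00, 10.60 and 10.50 on day 7, compared with 10.85, 10.82 and 10.76 on day 14, against 10.39, 10.52 and 10.68 in the controls; its difference of 0.44 ± 0.14 was not called (limma adjusted p = 0.092). For Uqcrc2, days 2 and 5 gave 10.80, 10.66 and 10.56, then 10.53, 10.18 and 10.15. Cyc1, the cytochrome c1 haem protein, read 9.90, 10.00 and 10.09 in the controls, 11.19, 10.99 and 11.01 on day 2 and 10.96, 11.23 and 11.12 on day 14. Day 5 gave 10.87, 10.62 and 10.71 and day 7 gave 10.16, 10.96 and 10.71, so that every TNBS array was above the highest control. Cyc1 rose against control by 1.06 ± 0.13 on day 2 and by 1.10 ± 0.13 on day 14 (limma adjusted p = 6.94e-05 and 7.14e-05). It was the 1 gene of the 33 called higher than control on every day after quantile normalization.

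Complex IV, cytochrome c oxidase, reduces oxygen. Cox5a, a nuclear subunit on its matrix side, read 8.04, 8.20 and 8.36 in the controls and 7.86, 7.84 and 7.72 on day 7, compared with 8.23, 8.48 and 8.29 on day 14. For Cox5a, days 2 and 5 gave 8.40, 8.07 and 8.25, then 8.15, 8.03 and 8.16. The day 7 arrays were lower than all others, and Cox5a rose by 0.53 ± 0.10 by day 14 (limma adjusted p = 0.00859). Against control its day 7 difference was -0.40 after quantile normalization and 0.19 as deposited, so no direction is given. Cox6a1, the widely expressed form of subunit VIa, read 11.89, 12.01 and 12.17 in the controls and 11.43, 11.35 and 11.29 on day 2. It read 11.21, 11.14 and 11.25 on day 5 and 10.93, 11.16 and 11.17 on day 7, compared with 11.57, 11.53 and 11.49 on day 14. After quantile normalization no TNBS array reached the lowest control, while as deposited day 14 read 11.59 to 11.77 and the lowest control 11.61. Cox6a1 fell by 0.67 ± 0.08 on day 2, by 0.82 ± 0.08 on day 5 and by 0.94 ± 0.08 on day 7 against control (limma adjusted p = 4.5e-05, 5.26e-06 and 1.52e-06), and it rose by 0.44 ± 0.09 from day 7 to day 14 (limma adjusted p = 0.0106). Cox5b read 10.84, 11.25 and 11.32 on day 7, compared with 11.56, 11.69 and 11.60 on day 14, against 11.47, 11.56 and 11.69 in the controls, with a difference of 0.48 ± 0.14 (limma adjusted p = 0.0692). For Cox5b, days 2 and 5 gave 11.58, 11.45 and 11.36, then 11.43, 10.89 and 11.43, with day 5 replicate 2 close to the lowest day 7 array. Cox4i1, the regulatory subunit IV, differed by 0.32 ± 0.14 (limma adjusted p = 0.224).

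**Figure D3:**
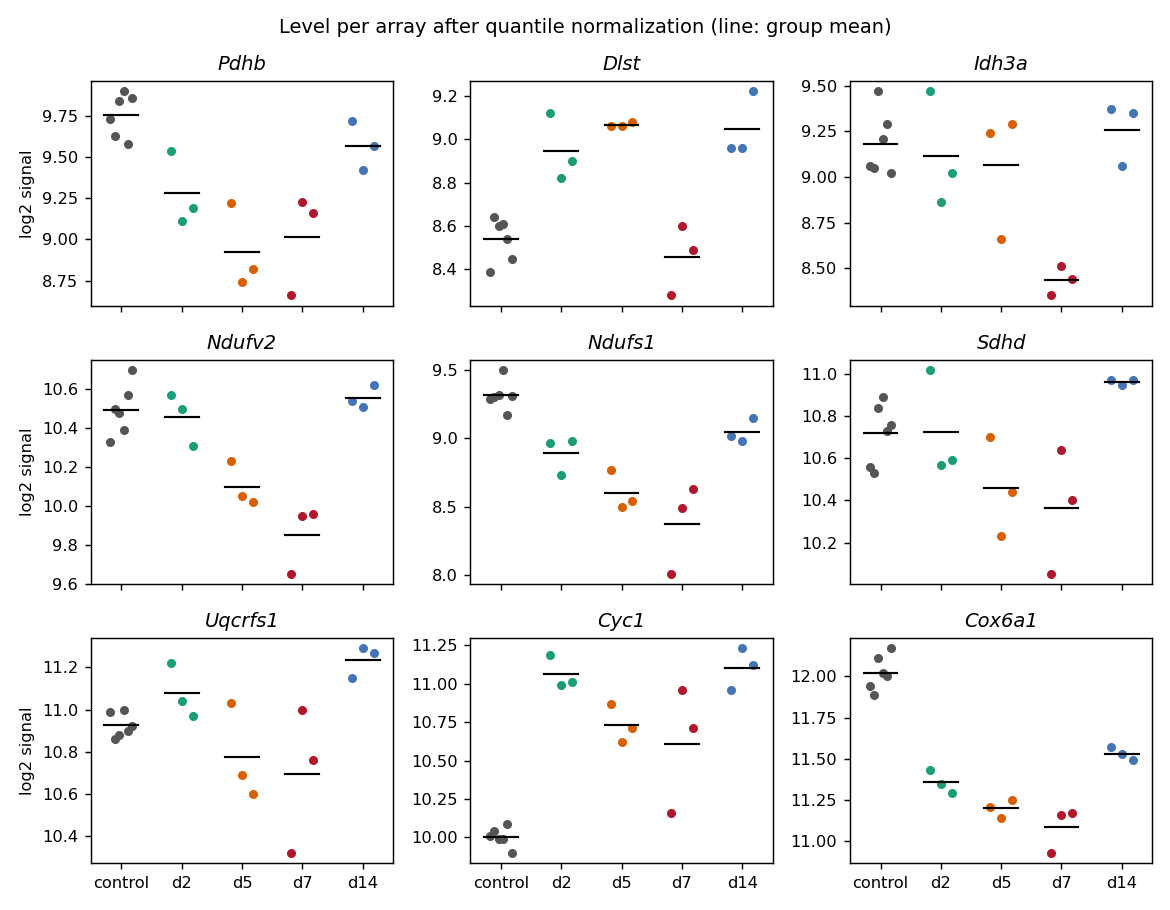
Log2 signal after quantile normalization of 9 of the genes in every array, by group; points are arrays (6 controls, 3 on each TNBS day), lines are group means, and each panel has its own vertical scale. Most panels reach their lowest point on day 7, while Cyc1 is lowest in the 6 controls and Cox6a1 is highest in them.

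No gene was called by limma between neighbouring days before day 14. Between days 2 and 5 the fitted difference was below 0 for 30 of 33 genes, with a median of -0.25, and limma called 0 genes, against 0.0129% of all probe sets called in either direction. At an unadjusted p under 0.05 there were 10 lower and 0 higher. Between days 5 and 7 it was below 0 for 26 genes, with a median of -0.09, and limma called 0, against 0.0161% of all probe sets. Here 4 genes were lower and 0 higher at an unadjusted p under 0.05. Dlst and Idh3a had the most negative differences of the 33 genes between days 5 and 7, at -0.61 ± 0.11 and -0.63 ± 0.18 (limma adjusted p = 0.0978 and 0.406).

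Day 14 was also above day 5 for 31 of 33 genes, with a median of 0.36, although limma called 0 of them, against 0.783% of all probe sets called in either direction. For 26 genes the arrays did not overlap, against 11.7% of all probe sets. At an unadjusted p under 0.05, 22 genes were higher and 0 lower, with no share of all probe sets counted at that threshold. Without day 5 replicate 1 limma called 6 genes. Day 14 was above day 2 for 30 of 33 genes, with a median difference of 0.12; limma called 0 genes, against 0.029% of all probe sets, and 1 gene was lower and 0 higher at an unadjusted p under 0.05. The day 14 arrays all lay above the day 2 arrays for 2 genes and all below for 1, against 5.58% and 5.77% of all probe sets. Without day 2 replicate 1 the median was 0.19, and they lay above for 21 genes, against 17.5% of all probe sets. The moderated F test among the 4 TNBS days called 5 of the 33 genes, Ndufv2, Dlst, Cox5a, Ndufs1 and Cox6a1, against 2.45% of all probe sets. That count was 1 without day 7 replicate 1, 2 without day 5 replicate 3, day 7 replicate 3 or any 1 day 14 array, 8 without day 7 replicate 2 and 10 without day 5 replicate 1.

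Against control, how many genes were called depended on the scale, and the direction of the median did too. After quantile normalization limma called 5 genes lower and 2 higher on day 2 (9.87% and 9.13% of all probe sets), and 13 lower and 2 higher on day 5 (14.5% and 12.1%). It called 20 lower and 1 higher on day 7 (15.9% and 12.4%; in the brighter 50% of probe sets 22% were lower), and 2 lower and 3 higher on day 14 (6.09% and 5.61%). On the deposited scale day 2 had 1 lower and 19 higher (0.525% and 82.8% of all probe sets), day 5 had 3 and 7 (1.1% and 80.9%), day 7 had 7 and 4 (1.07% and 80.1%), and day 14 had 0 and 25 (0.135% and 86.7%). The share of the 33 genes called higher was thus below that of all probe sets on every day on that scale. After median centring the lower and higher counts were 20 and 1 for day 2 (31.4% and 8.16%), 28 and 0 for day 5 (35.9% and 10.5%), 30 and 0 for day 7 (40% and 11.1%), and 16 and 2 for day 14 (28.3% and 7.31%). The median of the 33 genes on day 7 was -0.39 after quantile normalization, -0.01 as deposited and -0.77 after centring, beside -0.09, 0.63 and -0.14 over the brighter 50% of probe sets. On day 14 the same medians were 0.05, 0.45 and -0.30, beside -0.02, 0.73 and -0.02. The genes thus stood below the brighter 50% on all 3 scales on day 7, and on day 14 they stood above it on 1 scale and below it on 2. That 50% is not matched to the 33 genes in brightness. The 21 cytosolic ribosomal protein genes described below had day 7 medians of -0.02, 0.31 and -0.45. They too stood below the brighter 50% as deposited and after centring.

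A smaller set of calls was the same on all 3 scales. On day 2 Cox6a1 fell and Cyc1 rose, so 1 gene was lower and 1 higher, against 0.522% and 6.77% of all probe sets. On day 5 Pdhb, Sdhb and Cox6a1 fell, 3 genes, against 1.09%, and 0 rose, against 9.07%. On day 7 Idh3g, Mdh1, Ndufs1, Ndufv2, Sdha, Sdhb and Cox6a1 fell, 7 genes, against 1.07%, and 0 rose, against 9.64%. By day 14, 0 genes were lower, against 0.135%, and Dlst and Cyc1, 2 genes, were higher, against 4.51%. At an unadjusted p under 0.05 after quantile normalization the higher genes numbered 3 on day 5 and 1 on day 7, and the lower genes 5 on day 14. Each of the 14 calls shared by all 3 scales also held in all 15 other settings run with limma, which include leaving out each array of the groups compared. Those settings also include the deposited and median-centred values, where agreement was fixed by how the calls were chosen.

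Some subunits of the same complex stood at another distance from one another in TNBS arrays than in controls. The difference between a pair of probe sets has no meaning as a level, but its change from array to array does not depend on a shift shared by both. These pairs were chosen after their values were seen and are given without a test. Cyc1 minus Uqcrfs1 was -0.92 ± 0.10 (SD, n = 6) in the controls and -0.01 ± 0.05, -0.04 ± 0.14, -0.09 ± 0.06 and -0.14 ± 0.06 (SD, n = 3) on days 2, 5, 7 and 14. Sdhb minus Sdhc was 0.69 ± 0.13 in the controls and 0.01 ± 0.08, -0.07 ± 0.08, 0.12 ± 0.24 and 0.10 ± 0.13 on the same days. In both pairs the control arrays did not overlap with any TNBS array.

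The same step was seen in complex IV and in pyruvate dehydrogenase. Cox6a1 minus Cox5b was 0.46 ± 0.14 in the controls and between -0.11 and -0.05 in the means of the 4 days. Dld minus Pdhb was -1.22 ± 0.24 in the controls and between -0.43 and -0.26 in those means. On the deposited scale the control means of the 4 pairs were -0.98, 0.72, 0.43 and -1.30, close to the values above. Other pairs did not show a step shared by all 4 days. Sdha minus Sdhb was -0.50 ± 0.16 in the controls, -0.51 ± 0.15 on day 7 and -0.40 ± 0.12 on day 14, and Idh3a minus Idh3g was -0.76 ± 0.29, -0.83 ± 0.16 and -0.44 ± 0.32, with overlapping ranges. In Dlst minus Ogdh the controls (-1.55 ± 0.28) and day 7 (-1.54 ± 0.05) stood together, with day 5 at -0.91 ± 0.21. Where present, the step shared by all TNBS days separates the same arrays as the extraction entry and the value distribution, and these cannot be told apart from treatment.

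**Figure D4:**
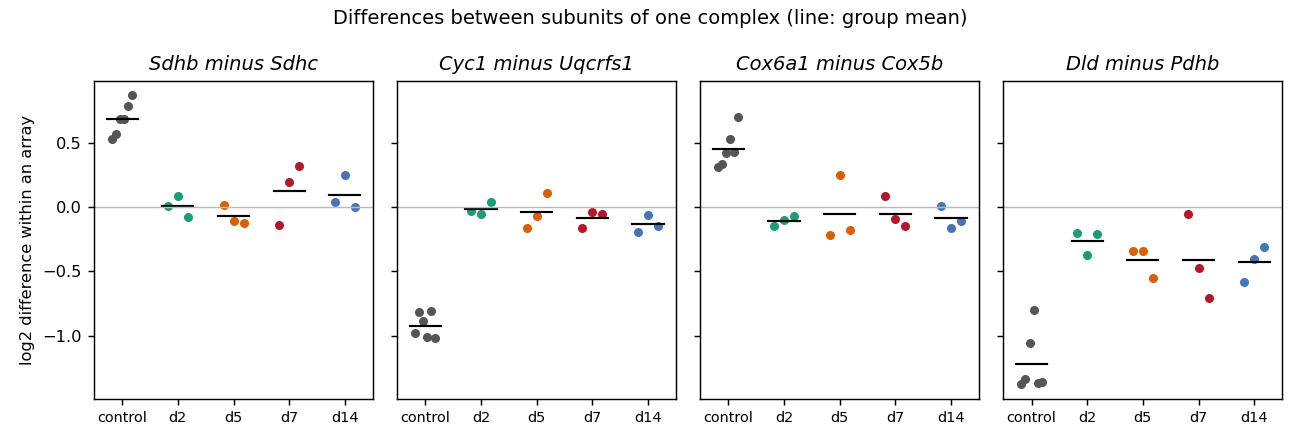
Difference in log2 signal between 2 subunits of the same complex within each array, by group; points are arrays, lines are group means, and the grey line is 0. In all 4 pairs the controls stand apart from the means of the 4 TNBS days, which lie close together.

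For 6 of the 33 genes another single-symbol probe set was present, 8 in all. All 8 differed in the same direction as the gene's main probe set between days 7 and 14, by 0.12 to 0.71, and limma called 2 of them higher. These were a Cs probe set (0.59 ± 0.14, limma adjusted p = 0.0282) and an Sdhd probe set (0.64 ± 0.17, limma adjusted p = 0.0412). Another Cs probe set and the other Ndufa9 probe set were dim, with means of 4.05 and 3.45, and differed by 0.17 and 0.12. Probe sets of Cs disagreed against control: on day 7 the main one differed by 0.03 ± 0.18 and 2 others by -0.68 ± 0.14 and -0.60 ± 0.12, so no direction is given for Cs against control. The other Mdh1 probe set differed from control on day 7 by -0.81 after quantile normalization and by -0.01 as deposited. The fall of Mdh1 on all 3 scales thus rests on its main probe set.

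Most other genes of the pathway also had higher fitted values on day 14 than on day 7. Among other genes listed under complex I by their Nduf names, the difference was above 0 for 27 of 27 and limma called 4 higher. Among other complex III and IV subunits it was above 0 for 11 of 13 and 5 were called higher. The other 2 were below 0, down to -0.46. Against control on day 7, 3 of the 27 and 3 of the 13 fell on all 3 scales, against 1.07% of all probe sets. Ndufa3 and Cox4i2, named after their values were seen, rose on all 3 scales, against 9.64%. Ndufa3 also did so on days 2, 5 and 14, and Cox4i2 on day 5. Between days 7 and 14 Ndufv3, Ndufa6 and Ndufa1 rose by 0.56 ± 0.11, 0.58 ± 0.12 and 0.54 ± 0.14 (limma adjusted p = 0.00957, 0.015 and 0.0356). Cox7b, a small complex IV subunit, rose by 0.78 ± 0.11 (limma adjusted p = 0.00133), and the complex III subunits Uqcr10 and Uqcr11 by 0.41 ± 0.10 and 0.46 ± 0.11 (limma adjusted p = 0.0317 and 0.0323). ATP synthase subunits were above 0 in 13 of 13, with 1 called: Atp5mg rose by 0.43 ± 0.11 (limma adjusted p = 0.0402), and Atp5pf (0.43 ± 0.12) and Atp5po (0.42 ± 0.14) were not called. Assembly factors were above 0 in 12 of 14 with 1 called, Sco1, a copper chaperone of complex IV (0.78 ± 0.20, limma adjusted p = 0.0409).

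Genes of pyruvate entry were among them. Of 6 other cycle and pyruvate entry genes 4 were called higher: Sucla2, a succinyl-CoA ligase subunit (0.49 ± 0.10), the mitochondrial pyruvate carrier genes Mpc1 (0.56 ± 0.13) and Mpc2 (0.54 ± 0.14, named after its value was seen), and pyruvate carboxylase, Pc (0.99 ± 0.26). Their limma adjusted p were 0.0125, 0.0237, 0.0449 and 0.0409, and the call for Pc was lost on the deposited scale and after median centring. Pdp1, the phosphatase that reactivates pyruvate dehydrogenase, fell by 1.58 ± 0.23 on day 7 against control (limma adjusted p = 0.000174) and rose by 1.21 ± 0.27 by day 14 (limma adjusted p = 0.018). Pdk3, a kinase that inactivates the same complex, was higher than control on day 7 by 0.62 ± 0.20 (limma adjusted p = 0.0273) and was called higher on all 3 scales. The 6 kinase and phosphatase genes did not share a direction by role. After quantile normalization limma called 2 of the 6 lower and 1 higher on day 7 against control (15.9% and 12.4% of all probe sets). Their median was -0.54, with 4 lower and 1 higher at an unadjusted p under 0.05.

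Of 14 regulators of mitochondrial biogenesis limma called 0 between days 7 and 14, with 4 higher and 0 lower at an unadjusted p under 0.05. Tfam and Tfb2m, which act in transcription of mitochondrial DNA, differed by 0.54 ± 0.17 and 0.37 ± 0.13, and Tfb1m by 0.08 ± 0.13 (limma adjusted p = 0.0914, 0.118 and 0.832). On day 7 limma called 4 of the 14 lower than control, against 15.9% of all probe sets, and 0 higher. Of these 4, 2 fell on all 3 scales and are named here after their values were seen. They were Ppargc1a, the coactivator PGC-1 alpha, by 2.01 ± 0.43 (limma adjusted p = 0.00245), and Gabpa, the DNA-binding subunit of GABP, by 1.38 ± 0.16 (limma adjusted p = 1.91e-05). Gabpa was also lower than control on all 3 scales on days 5 and 14. Other regulators went the other way on earlier days. Pprc1, Tfb1m and Polg were higher than control on all 3 scales on day 2, against 6.77% of all probe sets. On day 5 Pprc1, Nrf1 and Polg were, against 9.07%. Between days 7 and 14 Ppargc1a differed by 1.49 ± 0.49 and Gabpa by 0.15 ± 0.18, and neither was called (limma adjusted p = 0.105 and 0.745). Of 18 other mitochondrial proteins 2 were called higher on day 14 than on day 7, the matrix chaperones Hspa9 (0.62 ± 0.12, limma adjusted p = 0.00922) and Hspd1 (0.52 ± 0.14, limma adjusted p = 0.0464).

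Glycolysis and ribosomal protein genes served as lists from outside the mitochondrion. Of 14 glycolysis and lactate genes 10 were below 0 between days 7 and 14, 6 were lower and 0 higher at an unadjusted p under 0.05, and 1 was called: Slc16a3, a lactate exporter, fell by 2.16 ± 0.35 (limma adjusted p = 0.00307). It had risen by 1.89 ± 0.30 on day 7 against control (limma adjusted p = 0.00032), as had Slc2a1, the glucose transporter GLUT1, by 0.79 ± 0.16 (limma adjusted p = 0.00189). Of 21 cytosolic ribosomal protein genes limma called 0 between days 7 and 14, with 0 at an unadjusted p under 0.05 in either direction and a median of 0.02. The difference between these lists and the 33 genes was not itself tested.

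Markers of several cell types differed between the same days, and fewer cells of a type cannot be told apart from less RNA per cell in whole tissue. The mean of 10 enterocyte markers, relative to the control mean, was -0.63 on day 2 (array range -1.06 to -0.01) and -0.62 on day 5 (-1.08 to 0.08). It was -0.55 on day 7 (-1.36 to -0.03), close to those days, and 0.20 on day 14 (0.13 to 0.25). The 33 genes taken the same way were at -0.05, -0.28, -0.39 and 0.07, so that on day 2 the marker mean was low while theirs was near the controls. Of the 10 enterocyte markers 1 was called higher on day 14 than on day 7. Day 7 replicate 1, lowest for the cycle and chain genes, was also lowest for enterocyte markers, and on days 2, 5 and 7 the array with the highest enterocyte mean was the one with the highest mean of the 33 genes. This was not particular to enterocyte markers. Those same arrays had the lowest neutrophil marker mean of their day, at 2.01, 3.74 and 4.29 above control. Day 7 replicate 1 was the highest of all arrays for neutrophil (5.64), fibroblast (1.27) and endothelial (2.28) markers. The 9 smooth muscle markers were at -0.41 on day 2 and lowest on day 5, at -0.84 (-1.23 to -0.48). They were at -0.32 on day 7 and -0.47 on day 14, with 0 called by limma between days 7 and 14 and 1 lower at an unadjusted p under 0.05.

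Neutrophil, macrophage, fibroblast and endothelial markers had lower means on day 14 than on day 7. The mean of 5 of 6 neutrophil markers was 4.90 above control on day 7 (4.29 to 5.64) and 1.18 on day 14 (0.89 to 1.62), and limma called 4 of 5 lower on day 14 than on day 7. The 7 macrophage markers were at 2.96 (2.92 to 3.01) and 0.52 (-0.02 to 0.81), with 6 called lower. The 6 fibroblast markers were at 1.17 and 0.01, with 5 called lower, and 5 of 6 endothelial markers were at 1.69 and 0.34, with 3 called lower. T cell markers, 6 in all, were at 0.36 and 0.59, and 3 of 6 B cell markers at -0.06 and 2.03 with array ranges of -0.65 to 1.11 and 0.98 to 3.10. Limma called 0 in either list, with 0 T cell and 2 B cell markers higher at an unadjusted p under 0.05. The part of these cell types in the differences of the cycle and chain genes was not tested.

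**Figure D5:**
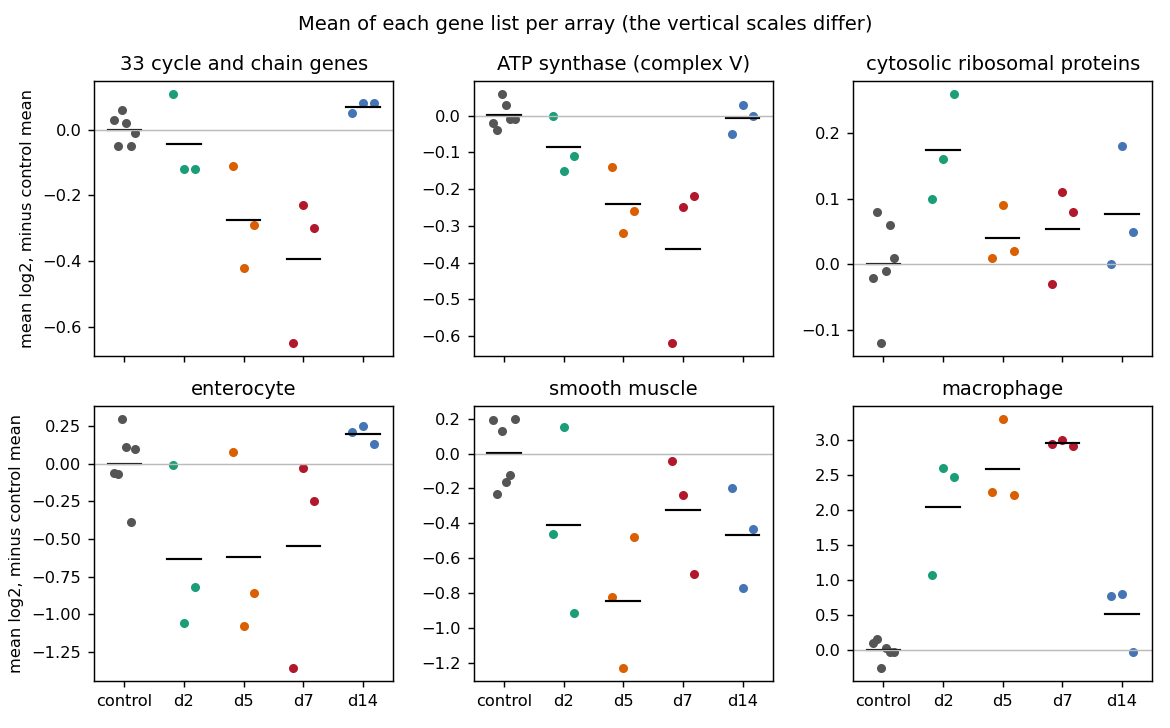
Mean log2 signal of 6 gene lists in each array, relative to the control mean, by group; points are arrays, lines group means, and the vertical scales differ between panels. The 33 cycle and chain genes and ATP synthase dip to day 7 and return by day 14, ribosomal protein genes stay between -0.12 and 0.26, enterocyte markers are lowest in day 7 replicate 1, and the mean of macrophage markers is highest on day 7.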

How the data were processed

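Total RNA of 18 full-thickness rat colon samples was hybridised to Affymetrix rat genome arrays. The deposited values are log2 signals that the authors normalized in Bioconductor with affyPLM, per the labels; its version, the background step and the set of arrays normalized at once are unknown here (not given in the sources used here), and the log base was taken from the range of the values. The table holds 31099 probe sets, of which 57 array controls were left out. Of the other 31042, 20826 carry 1 gene symbol, 436 several and 9780 none. No columns of other samples were present. The number of arrays limits the precision.

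Values were quantile-normalized over the 18 arrays with limma 3.58.1 in R 4.3.3, and limma fitted 1 coefficient per group (6 controls, 3 arrays for each of 4 days) with a shared spread, two-sided tests and Benjamini-Hochberg adjustment over all probe sets. The code was tested on simulated data. Values by array (each TNBS array, and the lowest, median and highest of the 6 controls) are given for up to 3 genes per complex, ranked by the F test among days, and for any gene called between days; from each other pathway list up to 3 genes are named by the same F test, and genes outside this rule are said to be. The genes and lists were chosen with earlier results of these data known, and nothing here is independent support for them. The condition that a change against control be called on all 3 scales, and the fit of TNBS arrays alone, were chosen after the data were seen. No 2 arrays held identical values. Replicate numbers did not pair the samples: 8 of 18 same-numbered pairs of groups had a correlation of deviations over 0.1, from -0.33 to 0.47.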

Additional observations from a re-analysis of the deposited data

Results flagged for a closer look

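Control values of the 33 genes were checked for an array far from the other 5. Pdha1 in control replicate 6 read 9.77, with the nearest control at 9.61 and the lowest at 9.56; the gap took 0.73 of the range, above Dixon's critical value for 6 arrays. It was 1 gene of 33, and chance alone would give about 1 in 20.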

How the results depend on the processing

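The 10 genes called higher on day 14 than on day 7 kept their direction in every alternative run; the count was 16 after median centring, 2 with the TNBS arrays alone, and 3 to 16 with 1 array left out. The F test among days called 0 genes with the TNBS arrays alone, 2 with trended and robust empirical Bayes and 1 to 10 with 1 array left out. Day 14 against day 5 gave 1 higher as deposited, 2 after median centring and 0 to 6 with 1 array left out.

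Against control the deposited scale gave 1 lower and 19 higher for day 2, then 3 and 7 (day 5), 7 and 4 (day 7), 0 and 25 (day 14). Median centring gave 20 and 1, 28 and 0, 30 and 0, and 16 and 2. The median difference turned to 0.34 (day 2) and 0.08 (day 5) as deposited and to -0.30 (day 14) after centring. As deposited Ndufs4 turned to 0.11, 0.20, 0.04 and 0.34 on days 2, 5, 7 and 14, Pdha1 to 0.07 and Ndufv1 to 0.00 on day 5, and Idh2 to 0.01, Ndufa5 to 0.12 and Cox5a to 0.19 on day 7; the cause was not tested. With 1 array left out, the lower genes numbered 2 to 6 for day 2 (2 without day 2 replicate 2, 3 without replicate 3), then 11 to 15, 14 to 22 and 1 to 2 for the later days. On day 14 the count of 1 came without control replicate 3 or 4 or day 14 replicate 1 or 3, and also with trended and robust empirical Bayes. The higher genes numbered 2 to 3, 2 to 3, 1 to 1 and 2 to 3.

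The replicate numbers do not pair the samples. With the number as a replicate block limma called 8 genes higher on day 14 than on day 7, 0 by the F test, 2 lower and 1 higher on day 2, 7 lower on day 5 and 1 lower on day 14 against control. Leaving out the dimmer 50% of probe sets or averaging the probe sets of a gene moved no count of calls by over 1.5 times. With 3 arrays a day, differences near 0.4 were called for some genes and not for others, and no call does not show that values were alike. Dim signal was no limit, since all 33 genes were bright.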
